A study of Homo sapiens with 6 samples.

Results

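The genes of the lysosome and of its proton pump, the V-ATPase, were examined in IMR32 cells, an established human neuroblastoma line, after 24 h with 5 µM of the small molecule CBR-470-1. They were compared with cells that received the same volume of the DMSO solvent for the same time. Polyadenylated RNA was sequenced from 3 independent biological replicates per treatment, which gave 6 libraries. The series title asks how chemical control of glycolysis acts on the KEAP1-NRF2 pathway. Members were the table rows whose symbol began with ATP6V0, ATP6V1 or ATP6AP, plus 19 listed genes for lysosomal enzymes, lysosomal membrane proteins and the control of the transcription factor TFEB. These rules matched 60 of the 35473 rows, and 40 of the 60 reached a mean of 1 TPM over the 6 libraries and were tested. TPM is a gene's length-scaled share of all transcripts in its library. It can be compared between genes, but a rise of some genes lowers the share of others. Depth is not recorded in it, so precision was judged from the replicate spread of each gene, moderated by that of genes of similar level.

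Of the 20 rows under 1 TPM, all carried V-ATPase names. ATP6V1B1, ATP6V1C2, ATP6V1G3, ATP6V0A4 and ATP6V0D2, isoforms known mainly from kidney, bone or other specialised cells, had means of 0.911, 0.548, 0.852, 0.00820 and 0.135 TPM. The others were pseudogene copies, an antisense row and a readthrough row, with means from 0 to 0.280 TPM. Quantification may split reads between ATP6V0C, ATP6V0E1, ATP6V1E1 or ATP6V1G1 and their pseudogene copies. No tested member shared its 6 values with another row. All 19 listed genes were tested.

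The lysosome breaks down proteins, sugars and lipids at acid pH. The V-ATPase supplies the acid: its cytosolic V1 sector splits ATP and turns a rotor, and its membrane V0 sector carries protons into the lumen. Pumps of the same kind acidify endosomes, the Golgi and, in neurons, synaptic vesicles. TFEB and its relative TFE3 switch on many of these genes through CLEAR elements, short E-box sequences in promoters. Folliculin (FLCN) and its partner FNIP1 act with the Rag GTPases on the lysosome surface to keep both factors phosphorylated and in the cytoplasm when nutrients are present.

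The libraries carried their labelled identity. All 10 adrenergic neuroblastoma markers were at or above 1 TPM, among them MYCN at a mean of 1139 TPM over all libraries. Their summed level was 2893 to 3152 TPM in controls and 2795 to 2846 TPM in treated cells. DBH, which makes noradrenaline, and the granule protein CHGA fell (log2 fold change -0.53 and -0.23, limma adjusted p = 0.0247 and 0.0468). The part of these shifts in the results was not tested. Of the macrophage and other blood markers, 0 of 10 reached 1 TPM, and AIF1, TYROBP and HBB were listed at 0 in every library. Their summed level was 0.951 to 1.28 TPM in DMSO and 1.56 to 1.88 TPM in CBR-470-1, and its part in the results was not tested. Of the epithelial markers 0 of 5, and of the mesenchymal and Schwann-like markers 5 of 12, reached 1 TPM. The NRF2 target NQO1 checked the treatment, with 3.74 to 5.31 TPM in DMSO and 61.4 to 70.6 TPM in CBR-470-1. Libraries of a group correlated at 0.989 to 0.991 across tested rows, and libraries of different groups at 0.986 to 0.989.

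Among the 40 members, ATP6V0A1 and PSAP rose and 0 fell in limma, at an adjusted p under 0.05 over all 13470 tested rows. Both gains were modest, 1.31-fold and 1.19-fold. The 2 rising members were 5.00% of the members, beside 1.13% of all tested rows called higher. For decreases the figures were 0 of 40 members and 0.839% of all rows, and in either direction 1.97% of all rows were called. With median centring, 124 rows were called higher and 237 lower over the whole table, against 152 and 113 without it. At an unadjusted p under 0.05, 11 members were higher and 3 lower, together 35.0% of members beside 23.5% of all rows. The CBR-470-1 libraries lay wholly above the DMSO libraries for 11 members (27.5%, beside 17.7% of all rows) and wholly below for 4 (10.0%, beside 12.5%). The median log2 fold change of the members was 0.08, on the log2(TPM + 1) scale used for every fold change here, and that of all tested rows was 0.03. Fold changes were positive for 26 members (65.0%), beside 56.9% of all tested rows. Individual changes ran from -0.33 to 0.39. The median SE was 0.0711 for the members and 0.0866 for all tested rows, so members were measured more precisely than the typical row. The labels name no batch. In bulk RNA, fewer cells of a type and less RNA per cell cannot be told apart.

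**Figure D1:**
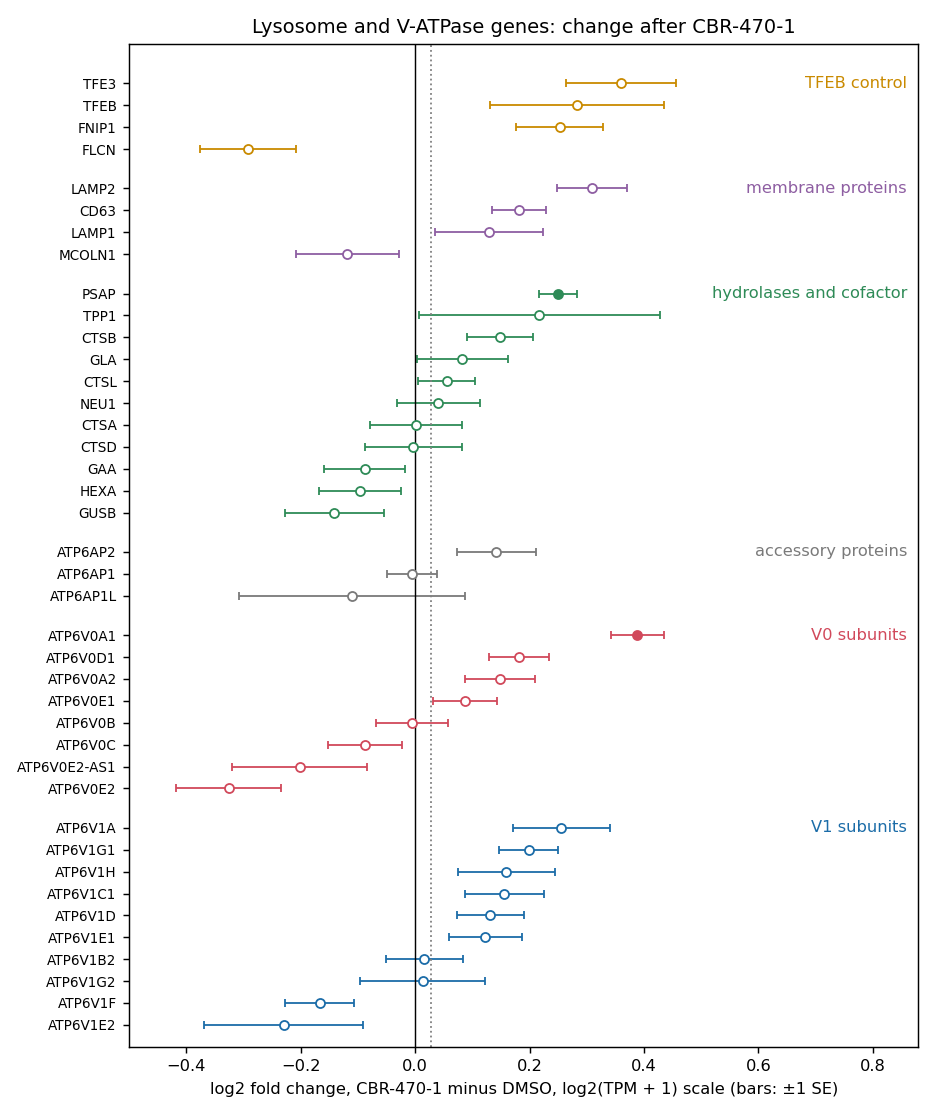
Log2 fold change (CBR-470-1 minus DMSO, log2(TPM + 1) scale) of each of the 40 tested members, grouped by role, with bars of 1 SE from limma. Filled points passed at an adjusted p under 0.05 over all rows, and the dotted line is the median of all tested rows. ATP6V0A1 and PSAP are the filled points, and ATP6V0E2 and FLCN lie lowest.

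The V0 sector held the largest change of either sign among the members. ATP6V0A1 encodes the a1 form of the large membrane subunit that lines the proton path, the form known best from neurons and synaptic vesicles. Its levels, listed here and below in the order of replicates 1, 2 and 3, were 122, 111 and 113 TPM in DMSO. They were 149, 153 and 150.2 TPM in CBR-470-1. The groups did not overlap, and the distance between them was larger than the spread within either. From 115 ± 5.59 to 151 ± 2.03 TPM (SD, n = 3 each), the log2 fold change was 0.39 (SE 0.0465, limma adjusted p = 0.0157). The gene covers positions 42458844 to 42522611 of chromosome 17 (GRCh38, GENCODE 29), and its value is for the whole gene, with exons and UTRs not resolved. With DMSO replicate 2 or CBR-470-1 replicate 1, 2 or 3 left out, the limma adjusted p was 0.0681, 0.0615, 0.0822 or 0.0835, and with no variance trend it was 0.0536.

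Of the 8 tested V0 rows, 1 rose, 0 fell and 4 had positive fold changes, with a median of 0.04. ATP6V0E2, which encodes a form of the small membrane subunit e, had the lowest fold change of all members. It stood at 27.01, 30.4 and 34.7 TPM in DMSO and at 24.0, 23.6 and 24.9 TPM in CBR-470-1. All treated libraries lay below all controls, and the DMSO libraries were the more scattered. The log2 fold change was -0.33 (SE 0.0910, limma adjusted p = 0.0980), which did not pass. ATP6V0E2-AS1, an antisense row that overlaps this gene on the other strand, had 2.02, 2.38 and 2.51 TPM in DMSO and 1.88, 1.75 and 1.98 TPM in CBR-470-1 (log2 fold change -0.20, limma adjusted p = 0.341). Both rows were ordered alike across the DMSO libraries. The labels state no strand-marking step, so reads of the 2 rows may not be separable.

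ATP6V0D1, whose product joins the V1 rotor to the proteolipid ring, was at 38.9, 40.2 and 42.3 TPM in DMSO and 45.2, 45.7 and 47.1 TPM in CBR-470-1. These groups were also apart, with a log2 fold change of 0.18 (SE 0.0527) and a limma adjusted p of 0.105, or 0.0496 after a correction for GC content and length. ATP6V0A2, the a2 form known from Golgi and endosomes, had means of 23.0 and 25.6 TPM, again with the treated libraries all higher (limma adjusted p = 0.202). The libraries overlapped for the 3 other V0 genes. ATP6V0C, the c subunit that carries the protons, had means of 135 ± 11.1 TPM in controls and 126 ± 4.40 TPM in treated cells, and its relative ATP6V0B had 70.6 ± 4.64 and 70.2 ± 3.18 TPM. ATP6V0E1, the other e form, had 76.3 ± 4.03 and 81.0 ± 3.20 TPM.

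Among the 10 tested V1 subunits, 0 rose and 0 fell. Positive fold changes were found for 8 (80.0%, beside 56.9% of all tested rows), and the median was 0.13. With median centring or quantile normalization 6 of the 10 were positive. With the GC and length correction 7 were positive, and the median was 0.08. The most abundant was ATP6V1G1, a stalk subunit, with 154, 149 and 149.8 TPM in DMSO and 162, 182 and 176 TPM in CBR-470-1. Its groups did not overlap, and the treated libraries were spread more widely than the controls (log2 fold change 0.20, SE 0.0513, limma adjusted p = 0.0864). ATP6V1A, the subunit that binds and splits ATP, had 39.8, 35.9 and 32.6 TPM in DMSO and 40.7, 42.5 and 46.4 TPM in CBR-470-1. The gap between its highest control and its lowest treated library was narrow, and it did not pass (log2 fold change 0.26, SE 0.0854, limma adjusted p = 0.136). Its partner in the catalytic head, ATP6V1B2, stayed within the replicate spread at 70.1 ± 4.83 and 70.9 ± 4.34 TPM.

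ATP6V1F, a subunit of the central shaft, went the other way without passing. It was at 132, 132 and 149 TPM in DMSO and 123, 117 and 126 TPM in CBR-470-1, so all treated libraries lay below all controls (limma adjusted p = 0.158). ATP6V1E2, a form of the stalk subunit E known from testis, was at 9.52, 6.29 and 8.63 TPM in DMSO and 6.68, 6.38 and 7.07 TPM in CBR-470-1. Its DMSO replicate 2 lay below every treated library, so the groups overlapped (log2 fold change -0.23, SE 0.139, limma adjusted p = 0.358). The regulatory subunit ATP6V1H was at 83.7 TPM in CBR-470-1 replicate 1, but at 72.1 and 65.9 TPM in the others, against 64.6 to 68.0 TPM in DMSO. ATP6V1C1, ATP6V1D, ATP6V1E1 and ATP6V1G2 had log2 fold changes of 0.16, 0.13, 0.12 and 0.01, with limma adjusted p-values of 0.230, 0.227, 0.295 and 0.958.

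The accessory proteins, which help the pump to assemble and to reach its membranes, gave 0 calls among 3. ATP6AP2, also called the prorenin receptor, was the most abundant. It was at 94.2, 104 and 98.9 TPM in DMSO and 102, 119.8 and 107 TPM in CBR-470-1, and the groups overlapped (log2 fold change 0.14, SE 0.0692, limma adjusted p = 0.266). ATP6AP1 had 54.0 ± 0.704 and 53.8 ± 0.478 TPM, with a log2 fold change of -0.01 (SE 0.0435). ATP6AP1L, a related row, had 3.58 ± 1.31 and 3.15 ± 0.341 TPM.

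**Figure D2:**
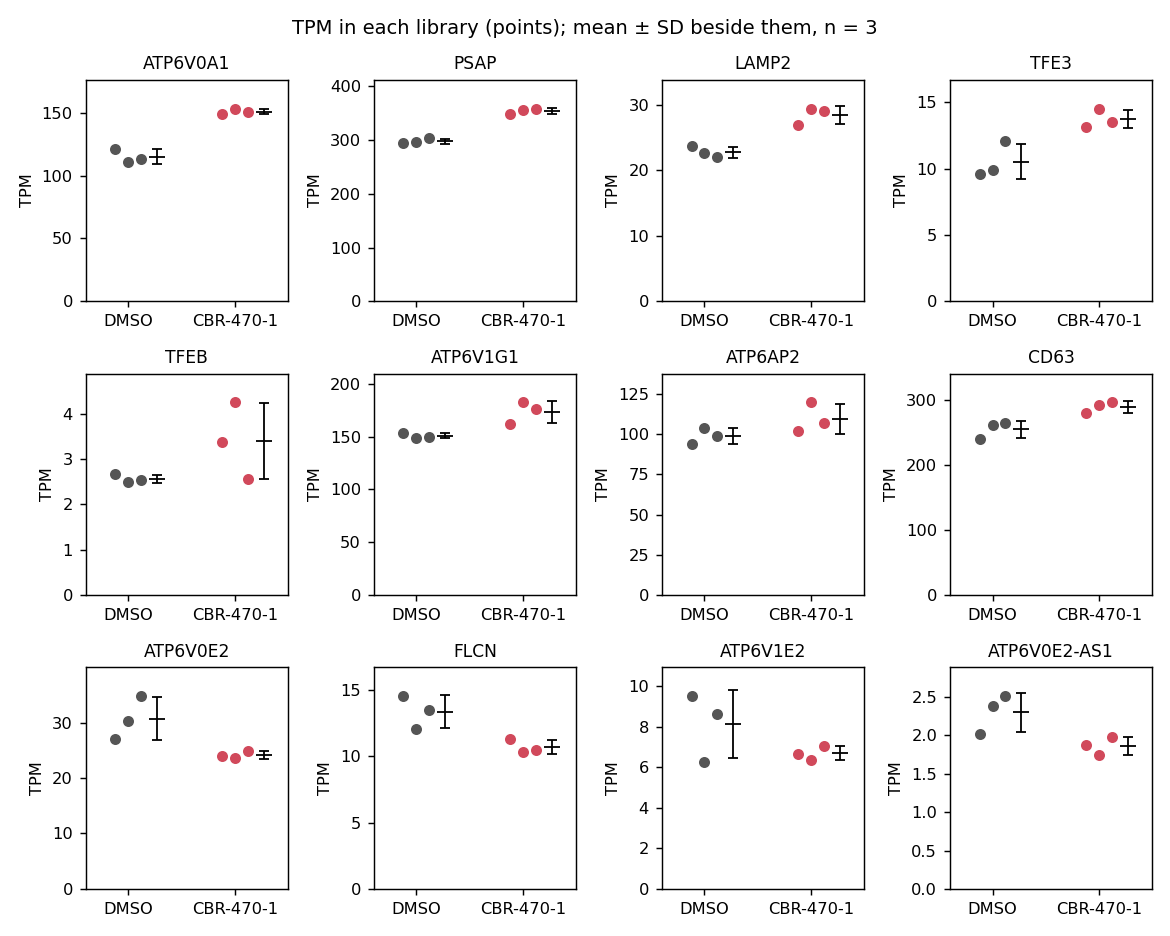
TPM per library for 12 members, with DMSO in grey and CBR-470-1 in red (points), and the mean ± SD of 3 libraries beside them. The axes start at 0. ATP6V0A1 and PSAP show a gap that is wide for their spread, and TFEB is scattered in the treated libraries.

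Summed over the 21 tested V-ATPase rows, the level was 1311, 1319.5 and 1342 TPM in DMSO and 1392, 1419.8 and 1413 TPM in CBR-470-1, a ratio of 1.06. Without ATP6V0A1 the means were 1209 ± 19.9 and 1257 ± 13.1 TPM, a ratio of 1.04, and the groups still did not overlap. The V1 rows had a ratio of 1.06 and the V0 rows of 1.07. ATP6V0A1 carried the V0 ratio: the other 7 V0 rows summed to 378 ± 22.4 and 375 ± 6.48 TPM, a ratio of 0.993, and their libraries overlapped.

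Several pump subunits have alternative genes, and their shares of the subunit's summed TPM were compared per library. For subunit a, the a2 share was 16.7%, 16.9% and 16.4% in DMSO and 15.0%, 14.3% and 14.1% in CBR-470-1, with the a1 form making up nearly all the rest. The summed level of subunit a was 138 ± 6.71 TPM in controls and 177 ± 2.06 TPM in treated cells. For subunit e, the e2 share was 27.3%, 27.5% and 31.1% in DMSO and 23.7%, 22.3% and 22.9% in CBR-470-1, while the summed level overlapped between groups at 107 ± 6.91 and 105 ± 3.57 TPM. In both subunits the shares of the groups did not overlap. The shares were not tested, since an exact permutation test of 3 against 3 cannot go below a two-sided p of 0.1. For subunit E the E2 share was 9.02% ± 1.85 and 6.98% ± 0.435, and for subunit G the G2 share was 6.14% ± 0.873 and 5.42% ± 0.230 (SD, n = 3), with overlap in both. The B2, C1 and d1 forms made up 97.9% to 99.9% of their subunit in each library.

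**Figure D3:**
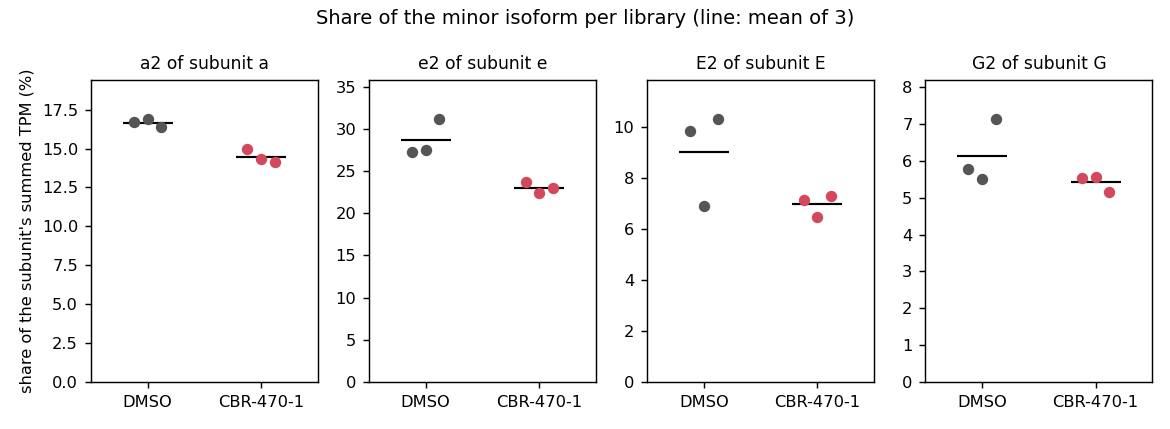
Share (%) of the minor form in the summed TPM of its V-ATPase subunit, per library (points) with the mean of 3 as a line, for a2, e2, E2 and G2. The axes start at 0. The a2 and e2 shares are lower in all CBR-470-1 libraries than in all DMSO libraries, whereas E2 and G2 overlap.

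Among the lysosomal enzymes and their cofactor, 1 of 11 rose and 0 fell. The riser was PSAP, prosaposin, which is cut into the saposins that present sphingolipids to their hydrolases. It was the most abundant member, at 294, 296 and 303 TPM in DMSO and 348, 356 and 358 TPM in CBR-470-1. All treated libraries were above all controls by far more than the spread within a group. From 298 ± 4.56 to 354 ± 5.21 TPM, the log2 fold change was 0.25 (SE 0.0324, limma adjusted p = 0.0194). PSAP covers positions 71816298 to 71851375 of chromosome 10 in the same annotation. With DMSO replicate 1 or 2 or CBR-470-1 replicate 1, 2 or 3 left out, the limma adjusted p was 0.0618, 0.0831, 0.0689, 0.0926 or 0.108, and with no variance trend it was 0.0865.

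None of the 10 hydrolases passed. The 4 cathepsins among the members, from the main family of lysosomal proteases, had log2 fold changes of 0.15 for CTSB, 0.05 for CTSL, 0.0015 for the carboxypeptidase CTSA and -0.0033 for the aspartic protease CTSD. The 6 other tested cathepsins, from the other lists, did not pass either, and ranged from CTSH at -0.11 to CTSO at 0.37. CTSB was at 77.0, 82.8 and 87.8 TPM in DMSO and 94.1, 88.7 and 91.5 TPM in CBR-470-1. Its groups were just apart, by less than the spread within DMSO (limma adjusted p = 0.183). CTSD and CTSA had means of 79.2 ± 8.10 and 78.9 ± 5.80 TPM, and of 39.2 ± 3.45 and 39.2 ± 2.52 TPM.

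The sugar-cleaving enzymes leaned to both sides of 0, and all overlapped between groups. GLA, alpha-galactosidase, and the sialidase NEU1 had log2 fold changes of 0.08 and 0.04. GUSB, beta-glucuronidase, HEXA, a hexosaminidase subunit, and GAA, acid alpha-glucosidase, had -0.14, -0.10 and -0.09. Their SEs of 0.0711 to 0.0873 were of the same order as the changes. TPP1, tripeptidyl peptidase, was the noisiest member, at 9.74, 18.7 and 14.8 TPM in DMSO and 14.2, 16.7 and 18.5 TPM in CBR-470-1 (log2 fold change 0.22, SE 0.211). DMSO replicate 1 was far below the other libraries, and without it the log2 fold change was -0.02.

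Of the 4 membrane proteins, 0 passed and 3 had positive fold changes. LAMP2, a heavily glycosylated protein of the lysosomal membrane that also serves as a receptor in chaperone-mediated autophagy, came nearest. It was at 23.7, 22.7 and 21.98 TPM in DMSO and 26.9, 29.4 and 29.1 TPM in CBR-470-1, with no overlap (log2 fold change 0.31, SE 0.0617, limma adjusted p = 0.0592). Restricted to rows of at least 5 TPM, it passed (limma adjusted p = 0.0434). The tetraspanin CD63, which also marks late endosomes and exosomes, was at 240.0, 260.4 and 264 TPM in DMSO and 279, 292 and 296 TPM in CBR-470-1. These groups too were apart (log2 fold change 0.18, SE 0.0475, limma adjusted p = 0.0877), and CD63 passed with the GC and length correction (0.23, limma adjusted p = 0.0420). LAMP1 overlapped, at 69.0 ± 6.64 and 75.5 ± 7.63 TPM (limma adjusted p = 0.444). MCOLN1, the lysosomal calcium channel, had 17.8 ± 0.820 and 16.4 ± 1.86 TPM (limma adjusted p = 0.464).

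Summed over the 19 listed lysosome genes, the level was 1071, 1099 and 1156 TPM in DMSO and 1224, 1216 and 1213 TPM in CBR-470-1, a ratio of 1.10. PSAP carried about as much of this gain as the rest together. Without it the means were 811 ± 38.5 and 864 ± 10.7 TPM, a ratio of 1.06, with DMSO replicate 3 at 853 TPM close to the lowest treated library at 855 TPM.

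The genes that control the programme were few and low. TFE3 had the highest mean over the 6 libraries, 12.14 TPM beside 12.03 TPM for FLCN, although FLCN was the higher in DMSO. TFE3 was at 9.60, 9.94 and 12.1 TPM in DMSO and 13.2, 14.5 and 13.5 TPM in CBR-470-1. The treated libraries were all higher, and DMSO replicate 3 stood closest to them (log2 fold change 0.36, SE 0.0960, limma adjusted p = 0.0891). TFEB was at 2.67, 2.50 and 2.53 TPM in DMSO and 3.37, 4.25 and 2.57 TPM in CBR-470-1. CBR-470-1 replicate 3 was level with the controls, so the groups overlapped (log2 fold change 0.28, SE 0.152, limma adjusted p = 0.304). FLCN was at 14.5, 12.1 and 13.5 TPM in DMSO and 11.3, 10.3 and 10.5 TPM in CBR-470-1, all lower with treatment (log2 fold change -0.29, SE 0.0846, limma adjusted p = 0.105). Its partner FNIP1 was at 6.57, 6.20 and 6.10 TPM in DMSO and 7.51, 7.99 and 7.55 TPM in CBR-470-1, all higher (log2 fold change 0.25, SE 0.0760, limma adjusted p = 0.113). None of the 4 passed, and these transcript levels say nothing of the location or phosphorylation of the proteins. FLCN overlaps MPRIP on the other strand, a row with a mean of 208 TPM. Beside FLCN and ATP6V0E2-AS1, the members with a more abundant row across from them are ATP6V1D (EIF2S1, 257 TPM), ATP6V1E2 (RHOQ, 48.6 TPM) and ATP6V1G2 (NFKBIL1, 15.0 TPM). MCOLN1 overlaps PNPLA6 (22.8 TPM) on the same strand.

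Other genes of the pathway were taken from 7 lists of 135 genes, of which 127 were tested. Of these, 2 rose and 0 fell (1.57% higher, beside 1.13% of all rows), and 25 had an unadjusted p under 0.05 (19.7%, beside 23.5%). The treated libraries lay wholly above the controls for 22 of the 127 (17.3%, beside 17.7%) and wholly below for 9 (7.09%, beside 12.5%). The median log2 fold change was 0.04. Both risers were among the 40 other enzymes and lumenal proteins. IDS, the sulfatase that starts the breakdown of heparan and dermatan sulfate, was at 24.9, 24.7 and 23.9 TPM in controls and 34.1, 34.8 and 32.9 TPM in CBR-470-1 (log2 fold change 0.46, SE 0.0532, limma adjusted p = 0.0142). SCPEP1, a serine carboxypeptidase, was at 69.2, 63.9 and 59.4 TPM in DMSO and 92.7, 97.7 and 85.8 TPM in CBR-470-1 (0.51, SE 0.0726, limma adjusted p = 0.0249). Without 1 library the limma adjusted p was 0.0447 to 0.0794 for IDS, above 0.05 without DMSO replicate 2 (0.0643) or CBR-470-1 replicate 1 (0.0615), 2 (0.0794) or 3 (0.0765). For SCPEP1 it was 0.0487 to 0.0980, below 0.05 only without DMSO replicate 1, and SCPEP1 also missed with no filter (0.0659) and with no variance trend (0.0580). In both genes the groups were well apart, and both changes were larger than that of any of the 40 members. The median of that list was 0.02, and 21 of its 40 genes had positive fold changes (52.5%, beside 56.9% of all tested rows).

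In the 6 remaining lists 0 genes passed, and their medians ran from 0.01 to 0.11. The largest change among 22 membrane proteins and transporters was in TMEM192, a protein of the lysosomal membrane, at 20.3 ± 1.11 and 25.7 ± 1.97 TPM (limma adjusted p = 0.0722). Among 10 ion channels and exchangers it was in TPCN1, an endolysosomal cation channel, at 7.77 ± 1.09 and 11.0 ± 0.705 TPM (limma adjusted p = 0.0740). IGF2R, a receptor that carries new hydrolases to endosomes by their mannose 6-phosphate tag, led the 10 sorting genes at 21.5 ± 0.673 and 27.3 ± 1.79 TPM (limma adjusted p = 0.0592). DMXL2, which helps V1 and V0 to join, led the 11 assembly genes at 34.4 ± 5.39 and 41.4 ± 0.274 TPM (limma adjusted p = 0.165). A list of Rag, Ragulator, mTOR and TFEB control genes, which included transcription factors such as MITF, had 24 tested genes. MLST8, a subunit of the mTOR complexes, had its largest change, at 52.1 ± 3.60 and 43.1 ± 2.83 TPM (limma adjusted p = 0.0913). PLEKHM1, an adaptor for lysosome fusion, had 12.8 ± 2.23 and 10.2 ± 0.757 TPM (limma adjusted p = 0.204) among 10 fusion genes.

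Promoter sequence was examined because CLEAR elements link these genes to TFEB and TFE3, and antioxidant response elements link others to NRF2. RefSeq windows on GRCh38.p14, from 250 bases before to 50 bases after the gene start, were held for 29 of the 40 members. The RefSeq start can differ from the GENCODE 29 bounds used for gene positions, as it does for ATP6V0A1 and ATP6V0D1. PSAP, which was called higher, and LAMP2 had no window, so the motif comparisons leave them out. The searches, on both strands, were for the E-box core CACGTG, for the longer CLEAR core TCACGTGA that contains it, and for TGACNNNGC, a core of the antioxidant response element. The windows shown are that of ATP6V0A1, the member that rose most, and those of 4 members with the longer core: ATP6V0D1 and ATP6V1G1, whose groups did not overlap, and LAMP1 and MCOLN1, whose groups did. They lie at chr17:42458628-42458927 (+ strand), chr16:67481108-67481407 (- strand), chr9:114587519-114587818 (+ strand), chr13:113296989-113297288 (+ strand) and chr19:7522374-7522673 (+ strand). Each is written 5′ to 3′ along its gene, and capitals mark any of the 3 motifs, merged where they overlap.
ATP6V0A1: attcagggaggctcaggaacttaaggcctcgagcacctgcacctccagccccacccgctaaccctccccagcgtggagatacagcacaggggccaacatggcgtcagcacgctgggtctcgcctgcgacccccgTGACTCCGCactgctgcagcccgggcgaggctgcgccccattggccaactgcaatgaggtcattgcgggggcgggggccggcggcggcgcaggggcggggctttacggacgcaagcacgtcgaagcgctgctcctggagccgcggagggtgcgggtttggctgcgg
ATP6V0D1: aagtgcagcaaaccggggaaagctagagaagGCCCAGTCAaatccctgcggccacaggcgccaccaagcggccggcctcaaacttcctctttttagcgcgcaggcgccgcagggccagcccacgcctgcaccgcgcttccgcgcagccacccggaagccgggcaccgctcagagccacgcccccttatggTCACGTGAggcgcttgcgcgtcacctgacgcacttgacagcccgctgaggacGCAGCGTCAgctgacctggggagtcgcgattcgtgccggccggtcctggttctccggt
ATP6V1G1: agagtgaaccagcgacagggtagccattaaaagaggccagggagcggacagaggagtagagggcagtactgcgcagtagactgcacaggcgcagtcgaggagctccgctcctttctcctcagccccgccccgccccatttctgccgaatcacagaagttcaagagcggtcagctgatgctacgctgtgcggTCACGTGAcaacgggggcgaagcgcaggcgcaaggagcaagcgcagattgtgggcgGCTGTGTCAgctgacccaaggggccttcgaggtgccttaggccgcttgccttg
LAMP1: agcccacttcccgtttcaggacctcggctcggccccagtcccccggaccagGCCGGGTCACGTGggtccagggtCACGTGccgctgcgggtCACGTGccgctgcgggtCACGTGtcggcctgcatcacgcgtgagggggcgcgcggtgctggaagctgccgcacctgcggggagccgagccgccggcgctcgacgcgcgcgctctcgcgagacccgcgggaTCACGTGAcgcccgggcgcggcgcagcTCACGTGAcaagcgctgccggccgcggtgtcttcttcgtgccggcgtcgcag
MCOLN1: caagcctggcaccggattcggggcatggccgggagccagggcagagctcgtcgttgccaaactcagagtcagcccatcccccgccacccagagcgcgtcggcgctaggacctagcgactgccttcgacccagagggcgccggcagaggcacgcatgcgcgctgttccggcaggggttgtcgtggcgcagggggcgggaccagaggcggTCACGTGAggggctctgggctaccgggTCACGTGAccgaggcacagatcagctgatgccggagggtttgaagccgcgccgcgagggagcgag

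In these windows the ATP6V0A1 sequence held TGACNNNGC starting 116 bases before the gene start, and neither E-box form. TGACNNNGC also started 219 and 8 bases before the start in ATP6V0D1, 3 in ATP6V1G1 and 199 in LAMP1, none of them called. The MCOLN1 window did not hold TGACNNNGC. ATP6V0D1 and ATP6V1G1 each held TCACGTGA, starting 60 and 59 bases before the start. MCOLN1 held it at 42 and 15 bases before the start, and LAMP1 at 29 and 2 bases before it. LAMP1 also had 6 copies of CACGTG in all, the copies within the longer core included. CTSA and GAA held the longer core too, and their groups overlapped, but their windows are not shown.

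The CLEAR core TCACGTGA was in 6 of the 29 member windows (20.7%), beside 1.04% of all 27305 windows of the same length and 2.02% of 9825 windows of tested rows. CACGTG was in 12 of the 29 (41.4%), beside 7.43% of all windows and 10.4% of those of tested rows. The members come from a pathway known for CLEAR elements, so these high shares are no finding about the treatment. TGACNNNGC was in 11 of the 29 (37.9%), beside 13.6% and 15.2%. In GAA and LAMP1 the match overlapped an E-box core, and the 11 include the antisense row ATP6V0E2-AS1. This share too describes the windows and is no finding about the treatment. Medians with and without a motif lay close together. The median log2 fold change was 0.07 for the 6 members with TCACGTGA and 0.05 for the 23 without. It was 0.02 for the 12 with CACGTG and 0.08 for the 17 without, and 0.05 and 0.08 for members with and without TGACNNNGC. A match describes letters in a window, not binding, and the medians carry no test.

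**Figure D4:**
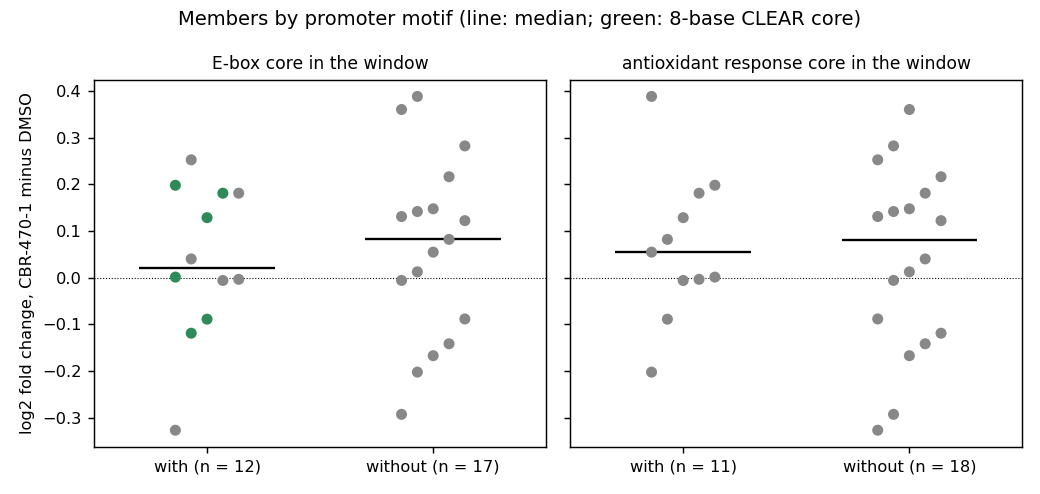
Log2 fold change (CBR-470-1 minus DMSO, log2(TPM + 1) scale) of the 29 members with a promoter window, split by the E-box core (left, 12 with and 17 without) and the antioxidant response core (right, 11 with and 18 without). Points are genes, lines are medians, and green points hold the longer CLEAR core. The medians lie between 0.02 and 0.08 in all 4 columns.

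Base composition moved with the fold changes over the whole table, as GC-rich transcripts tended to lower values in CBR-470-1. Spearman's rho across 13444 tested rows between the GC content of the longest transcript and the log2 fold change was -0.35, and across the 40 members it was -0.26. Genes are not independent replicates, so no p is given. ATP6V0A1 and PSAP, at 53.8% and 54.7% GC, were above the median of 48.1% of all tested rows, while LAMP2 was at 37.7%. With the GC and length correction ATP6V0A1 and PSAP kept their calls, at log2 fold changes of 0.39 and 0.27, and ATP6V0D1 and CD63 passed as well, so 4 members rose and 0 fell.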

How the data were processed

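The authors deposited a single TPM table, 1 column for each library, and the submitters' processing notes name bcl2fastq, Salmon 0.7.2 and GRCh38. The sources used here name no transcript annotation. Column totals were 972453 to 973696 TPM. Depth is unknown, and no counting interval can be given.

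On the log2(TPM + 1) scale, limma 3.58.1 in R 4.3.3 tested the 13470 rows whose mean reached 1 TPM (group only, variance trend, two-sided, Benjamini-Hochberg over all tested rows, called at an adjusted p under 0.05). Means, SDs and ratios used TPM itself. The members and lists were chosen with earlier results of these data known. Values by library are given for called members, the 4 largest changes each way, the most abundant member of each role, TFEB, TFE3 and called genes of the other lists. Each other list also has its most changed gene named with its means. Other members given by library were chosen after their values were seen. Rows were matched to GENCODE 29, 34740 by name, 582 by a synonym and 151 not at all. Alternatives were other pseudocounts (0.1 and 5 TPM), filters (none, 5 TPM), scalings, variance models, a GC and length spline (5 degrees of freedom), a replicate block, leaving out each library, and an adjusted p under 0.01.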

Additional observations from a re-analysis of the deposited data

How the results depend on the processing

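The count of 2 members higher was kept under both other pseudocounts, no filter, median centring, quantile normalization, rescaling without mitochondrial and ribosomal protein genes and robust empirical Bayes. It was 3 with a 5 TPM filter, 4 with the GC and length correction, and 0 with no variance trend, with an adjusted p under 0.01, with the replicate block and with the block and GC correction together. No member was lower in any of these. Left-out libraries, which leave fewer samples, gave 0 to 2: 2 without DMSO replicate 3, 1 (ATP6V0A1) without DMSO replicate 1 and 0 without any other. With a library left out the log2 fold change was 0.36 to 0.43 for ATP6V0A1 and 0.24 to 0.26 for PSAP, and adjusted p-values over all settings were 0.00895 to 0.0892 and 0.0102 to 0.108. The cause was not tested. The members' median was 0.05 to 0.12 with a library left out. IDS and SCPEP1 also lost their calls under the replicate block (adjusted p = 0.0872 and 0.0844).

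Over all rows, 265 calls became 82 with no filter, 428 with a 5 TPM filter, 83 with no variance trend, 22 at an adjusted p under 0.01, 17 with the replicate block, 14 with the block and GC correction, and 18 to 82 with a library left out. The sample titles give replicate numbers without saying whether they mark pairs. Same-numbered libraries had correlations of deviations of -0.14, -0.01 and -0.03, beside -0.09 to 0.14 for differently numbered ones. With 3 libraries per group, each centred on its group mean, these values cannot decide whether the libraries were paired.

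Of the 40 members, 31 kept their sign in all 18 alternatives. The other 9 lay near 0 or varied widely. With median centring ATP6V1B2 was at -0.0211, ATP6V1G2 at -0.0245 and CTSA at -0.0358. With quantile normalization these were at -0.0027, -0.0208 and -0.0195, and CTSA was at -0.0010 with rescaling. With the GC and length correction, blocked or not, ATP6AP1 was at 0.0081, ATP6V0B at 0.0282, ATP6V0C at 0.0077, ATP6V1B2 at -0.10 and CTSD at 0.0750. The median of all tested rows was then -0.000929, and -0.00901 with median centring. With a library left out, ranges were -0.0130 to 0.0047 for ATP6AP1, -0.27 to 0.11 for ATP6AP1L, -0.0427 to 0.0460 for ATP6V0B, -0.0278 to 0.0716 for ATP6V1B2, -0.0651 to 0.12 for ATP6V1G2, -0.0665 to 0.0571 for CTSA, -0.0773 to 0.0688 for CTSD and -0.0221 to 0.41 for TPP1.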
